A study of Mus musculus with 3 samples.

Results

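Hepatocytes of mice on a high-fat diet (HFD) were compared with hepatocytes of control mice (CON) by single-cell RNA sequencing, 1 library a side. Hepatocytes were selected on their own counts of unique molecular identifiers (UMIs, one for each captured RNA molecule): 3 to 30% of UMIs in mitochondrially encoded genes, at least 20 UMIs in Alb, Apob and Cps1 together, and 0 UMIs in the 6 genes Ptprc, Cd3e, Cd79a, Ptprb, Krt19 and Col3a1, which mark blood, T, B, endothelial, bile duct and mesenchymal cells. This left 1996 hepatocytes of the 24229 barcodes in both libraries, 1161 of 11245 in CON and 835 of 12984 in HFD. All mice were male C57BL/6 animals aged 8 weeks at the start, and each library pooled cells of 2 of them. CON mice had no treatment and standard housing, and HFD mice ate for 4 months a diet in which fat supplied 60% of the energy, which the study used as a model of metabolic dysfunction-associated steatohepatitis. The remaining library, CCL4, from mice on chow for 3 months and then on intraperitoneal 10% carbon tetrachloride (0.1 mL, 2 injections a week for 4 weeks), held 2399 hepatocytes chosen the same way and is given as a further value. In each group, hepatocytes and nonparenchymal cells from collagenase digestion were mixed in equal number before capture.

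Hepatocytes are the main metabolic cells of the liver. They build fatty acids, cholesterol and bile acids, burn fatty acids in mitochondria and peroxisomes, detoxify drugs with cytochrome P450 enzymes, and secrete most plasma proteins. In inflammation, interleukins 1 and 6 turn their secretion toward acute-phase proteins such as serum amyloid A, while an energy-rich diet acts on lipid genes through transcription factors such as SREBP-1c, ChREBP and PPAR alpha.

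The 6 stretches of DNA below lie directly before the start annotated in RefSeq for genes among the 15 with the lowest level in HFD relative to CON. They are RefSeq sequences of mouse build GRCm38.p6, each 250 bases and written 5′ to 3′ on the gene's own strand. In the serum amyloid genes and Lcn2, capitals mark the letters TTGCNNAA read on either strand, a core bound by C/EBP factors, and in the metallothionein genes TGCGCNC or TGCACNC on either strand, the core of the metal response element.
Saa1 (chr7:46742981-46743230, minus strand): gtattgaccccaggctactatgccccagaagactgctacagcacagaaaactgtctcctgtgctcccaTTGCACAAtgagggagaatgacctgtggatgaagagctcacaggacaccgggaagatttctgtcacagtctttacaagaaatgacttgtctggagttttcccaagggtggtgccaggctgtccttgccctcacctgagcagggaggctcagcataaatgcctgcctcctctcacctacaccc
Saa2 (chr7:46751583-46751832, plus strand): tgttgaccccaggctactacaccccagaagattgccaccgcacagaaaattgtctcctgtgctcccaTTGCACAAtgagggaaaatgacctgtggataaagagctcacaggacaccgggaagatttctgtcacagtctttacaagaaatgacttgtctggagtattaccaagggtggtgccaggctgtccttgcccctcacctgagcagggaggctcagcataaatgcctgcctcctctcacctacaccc
Saa3 (chr7:46715677-46715926, minus strand): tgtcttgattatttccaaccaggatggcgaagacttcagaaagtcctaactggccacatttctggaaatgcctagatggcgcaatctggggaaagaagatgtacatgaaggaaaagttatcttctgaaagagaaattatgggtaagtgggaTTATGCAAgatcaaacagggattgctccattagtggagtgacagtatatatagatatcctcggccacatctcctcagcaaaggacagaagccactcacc
Lcn2 (chr2:32387740-32387989, minus strand): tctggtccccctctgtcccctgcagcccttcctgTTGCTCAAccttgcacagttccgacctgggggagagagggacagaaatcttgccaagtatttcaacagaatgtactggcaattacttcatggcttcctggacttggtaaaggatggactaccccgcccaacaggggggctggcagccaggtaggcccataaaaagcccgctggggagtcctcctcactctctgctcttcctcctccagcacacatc
Mt1 (chr8:94178839-94179088, plus strand): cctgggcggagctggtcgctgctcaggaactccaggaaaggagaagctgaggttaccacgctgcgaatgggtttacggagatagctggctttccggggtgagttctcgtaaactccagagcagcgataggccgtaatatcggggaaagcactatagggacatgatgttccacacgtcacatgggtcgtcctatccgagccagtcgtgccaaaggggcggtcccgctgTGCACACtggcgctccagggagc
Mt2 (chr8:94172368-94172617, plus strand): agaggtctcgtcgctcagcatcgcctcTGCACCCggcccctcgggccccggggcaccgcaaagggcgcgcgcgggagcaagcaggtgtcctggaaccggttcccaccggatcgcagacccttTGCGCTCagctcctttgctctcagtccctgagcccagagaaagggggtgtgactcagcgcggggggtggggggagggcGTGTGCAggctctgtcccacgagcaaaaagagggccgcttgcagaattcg

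The libraries differed in depth and in free RNA, which bears on every value below. Control hepatocytes had a median of 8286 UMIs, HFD hepatocytes 3576 and CCL4 hepatocytes 3098. T cells, which make few of the hepatocyte's transcripts although they share genes such as Mt1 and Stat3, were taken as barcodes with at least 2 UMIs in Cd3d, Cd3e and Trac together, 1691 in CON and 1171 in HFD. In CON they carried a median of 12 UMIs in Alb, Apob and Cps1 and in HFD 46, with 20 as the lowest count in any HFD T cell. The requirement of 20 marker UMIs therefore set no HFD T cell apart, and in HFD the selection rested on the mitochondrial share and the excluding genes. Alb, which the selection used, stood at 28013 CPM (UMIs scaled to a total of 1e6) in CON hepatocytes against 5532 in CON T cells, and at 40140 against 17133 in HFD. In CON, 2 barcodes met both rules and were counted as hepatocytes and as T cells, and in HFD 0. The highest UMI count was 69684 in CON hepatocytes and also in CON T cells. All CON T cell sums below, including those taken off, therefore hold hepatocyte barcodes and are not free RNA alone. Sums without these barcodes were not made. Between 2 and 3% mitochondrial UMIs, just outside the limit, lay 94 CON and 210 HFD barcodes with medians of 3090.5 and 2773.5 UMIs, and between 3 and 4%, just inside it, 83 and 201 with medians of 4472 and 3829. CON and HFD shared 36 barcode sequences, 1 of them a hepatocyte in both libraries.

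For each gene, UMIs were summed over the hepatocytes of a library and expressed as CPM, and HFD was divided by CON among the 2808 genes with at least 50 CPM in either. Of these, 217 were at least 2-fold higher in HFD (7.73%) and 194 were at most 0.5 of the control level (6.91%). The counts of called genes in each list below are to be read beside these shares. The median log2 ratio of all 2808 genes was 0.12. Scaled to that median, 167 genes were higher and 227 lower. With pooled mice and 1 library a side, no test was possible, and animal, digestion, library and diet cannot be told apart. All intervals are 95% intervals that cover counting error only, and 64 of the higher and 44 of the lower genes had an interval that reached past the 2-fold limit. Among the genes close to the limits, Cyp2c54 with a ratio of 2.01 and Btg2 with 0.500 lay inside, and Apoc1 with 1.97 and Rpl22l1 with 0.502 outside.

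**Figure D1:**
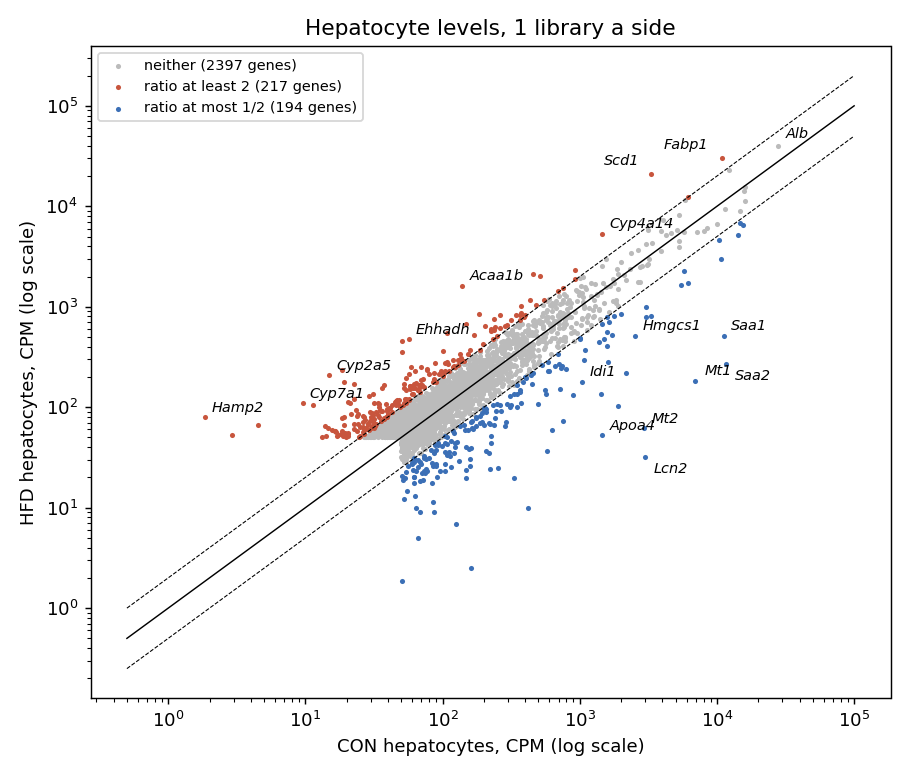
Level of each of the 2808 genes in CON (horizontal) and HFD (vertical) hepatocytes, in CPM on log axes, 1 point a gene and 1 library a side. The solid line marks equal levels and the dashed lines a 2-fold difference. The 194 lower genes include Lcn2, Mt1, Mt2 and the serum amyloid genes far below the line, whereas Scd1 and Fabp1 are the most abundant of the 217 higher genes.

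Acute-phase genes were among the lowest in HFD relative to CON. Of 30 listed genes, 26 were tested, 23 of them lower in HFD and 1 higher, and the list held 12.6% of all hepatocyte UMIs in CON, 4.14% in HFD and 3.83% in CCL4. Its median log2 ratio was -1.88 against 0.12 over all genes. Lcn2, a siderophore-binding protein of innate defence, had 2981 CPM in CON, 32.0 in HFD and 36.4 in CCL4, so HFD held 0.0107 of the control level (interval 0.00877 to 0.0130). Saa2 had 11558, 271 and 64.6 CPM, a ratio of 0.0234 (0.0219 to 0.0250), and Saa1 had 11281, 516 and 161 CPM, a ratio of 0.0458 (0.0436 to 0.0480). Both encode the serum amyloid A that circulates on high-density lipoprotein, and UMIs of these near-identical copies may have been divided between them by the counting. After thinning each cell to 1000 UMIs, 37.7% of HFD hepatocytes and 38.2% of HFD T cells had a Saa1 UMI (74.4 and 69.9% unthinned). For Saa2 these shares were 21.0 and 25.6% (49.1 and 51.2%). Both HFD shares were thus near the background of T cells, and the part of free RNA in the HFD levels was not tested. Saa3, the form made in tissues, was at 417 CPM in CON, 9.95 in HFD and 10.6 in CCL4. CON was thus the high library and the other two were low.

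Fibrinogen, haptoglobin and several other secreted acute-phase proteins were lower by a smaller factor than Lcn2, Saa1 and Saa2. The fibrinogen chains Fga, Fgb and Fgg had ratios of 0.420, 0.459 and 0.364, and Fgg stood at 14256 CPM in CON, 5189 in HFD and 4682 in CCL4. Haptoglobin (Hp), which binds free haemoglobin, went from 6163 CPM in CON to 1728 in HFD, and hemopexin (Hpx), which binds haem, from 10274 to 4580. Orm1 and Orm2, the acid glycoproteins, had ratios of 0.300 and 0.0982, Apcs, the amyloid P component, 0.0946, and Serpina3n, a protease inhibitor, 0.101. Crp, which in mice is only a weak acute-phase protein, had 1714 and 522 CPM. The 1 higher member was Hamp2, with 1.85 CPM in CON, 79.6 in HFD and 739 in CCL4. Hamp, the iron hormone hepcidin and its close relative, had 3145, 2674 and 5173 CPM. After thinning each cell to 1000 UMIs, 6.77% of HFD hepatocytes and 7.25% of HFD T cells had a Hamp2 UMI, so its HFD share was at the background of T cells (17.5 and 17.3% unthinned). A share counts cells and not UMIs, and single HFD hepatocytes held up to 23 Hamp2 UMIs against at most 3 in HFD T cells. Hamp2 also stayed at least 2-fold higher with T cell UMIs taken off, a step described below.

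A list of interleukin 1 and 6 signalling genes, holding receptors and signal carriers but also response genes, was lower as well. Of 12 tested, 7 were lower and none higher, with a median log2 ratio of -1.18. Il1rap, a receptor subunit, had 80.2 CPM in CON and 65.0 in HFD and Jak1 139 and 84.6, and neither was called. Il1r1, the interleukin 1 receptor, had 331 CPM in CON, 19.6 in HFD and 15.4 in CCL4, and Steap4, a metalloreductase induced by these cytokines, 1904, 103 and 171. Gm38070, with a ratio of 0.0547, overlaps Il1r1 on the same strand of chromosome 1, and the pair cannot be fully separated. Cebpb and Cebpd, transcription factors of the acute phase, had ratios of 0.321 and 0.281, Stat3 0.459 and Il6st, the shared interleukin 6 receptor subunit, 0.423. Il1rn, the interleukin 1 receptor antagonist, had 160 CPM in CON and 2.49 in HFD, the latter from 8 UMIs (ratio 0.0155, interval 0.00668 to 0.0306). Socs3, a feedback inhibitor of this pathway, had 189 and 96.1 CPM, a ratio of 0.508 that missed the limit. In T cells Lcn2 stood at 923 CPM in CON and 30.5 in HFD, and Saa2 at 7892 and 285, so the same order of libraries was present there.

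All 3 tested members of the metallothionein and zinc transporter list were lower. Mt1, a small metal-binding protein, had 6938 CPM in CON, 184 in HFD and 394 in CCL4 (ratio 0.0265, interval 0.0244 to 0.0287). Mt2 had 2955, 61.6 and 118 CPM (0.0208, 0.0180 to 0.0240), and Slc39a14, a zinc and iron importer, 375, 109 and 134. In T cells Mt1 was at 4421 CPM in CON and 112 in HFD. At 1000 UMIs a cell, 98.2% of CON and 14.9% of HFD hepatocytes had an Mt1 UMI, against 93.2 and 9.28% of T cells. Unthinned, the hepatocyte shares were 99.9 and 39.5%.

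Among 32851 RefSeq promoter windows, from 250 bases before to 50 after a start, 10.8% held TTGCNNAA, as did 10.5% of 2879 windows of tested genes, 17.6% of 176 windows of lower genes and 12.8% of 235 windows of higher genes. The lower acute-phase genes held it in 10 of 21 windows (47.6%), and in the sequences above it began 182, 183, 99 and 216 bases before the start of Saa1, Saa2, Saa3 and Lcn2. The 21 windows belonged to 18 of these 23 genes, so the share is one of windows and not of genes. TGCGCNC or TGCACNC was found in 25.7% of all, 34.1% of tested, 30.7% of lower and 31.9% of higher windows. TTCNNNGAA, the core of STAT sites, was found in 8.30% of all, 6.98% of tested, 9.66% of lower and 3.40% of higher windows, and CACGTG, the E-box of clock factors and SREBP, in 2349 of all, 317 of tested, 16 of lower and 22 of higher windows. Both strands were searched for each motif, and matches of different motifs overlapped in 135 windows, all between CACGTG and the metal response core. These shares describe letters in a window and not bound sites. Starts are those annotated in RefSeq, and sites outside a window were not searched.

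**Figure D2:**
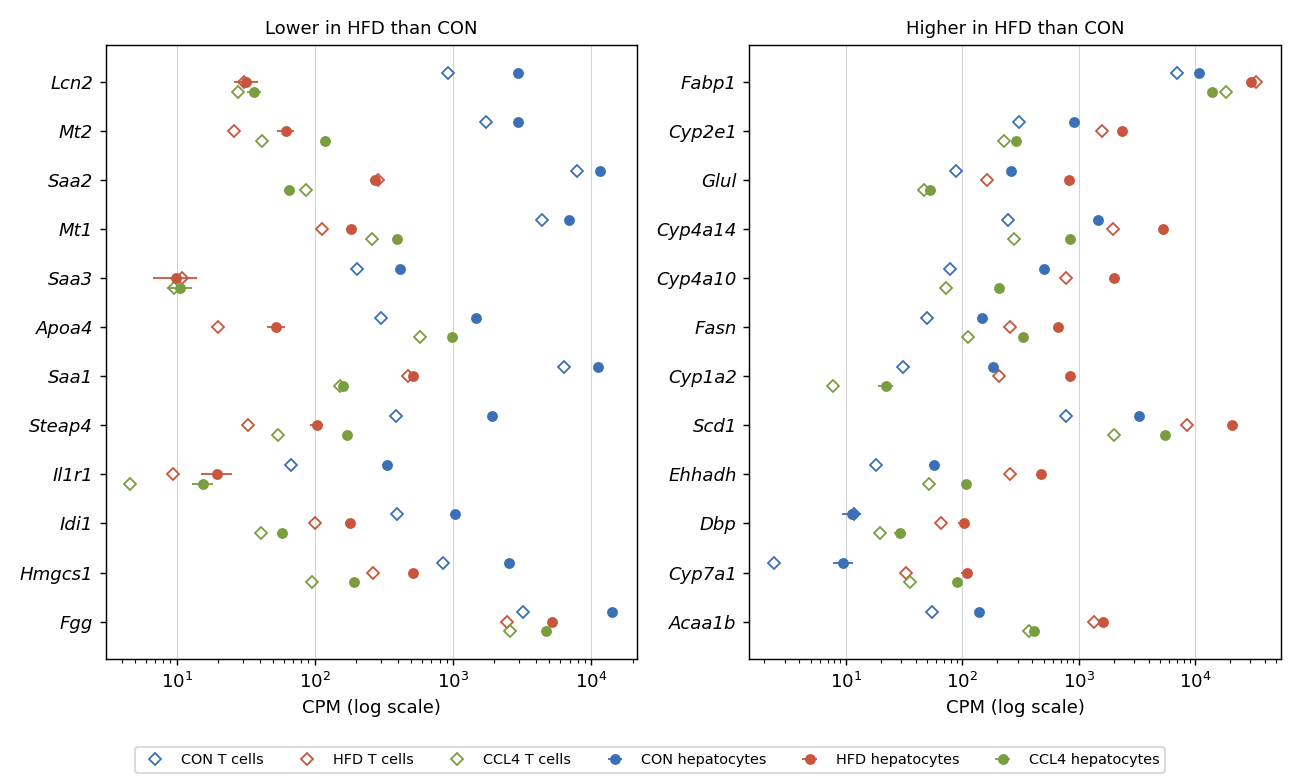
Levels of 24 genes in hepatocytes (filled circles, with 95% counting intervals) and T cells (open diamonds) of the CON, HFD and CCL4 libraries, in CPM on a log axis. For the lower genes on the left, CON hepatocytes lie to the right of those of both other libraries, least far at Apoa4, where CCL4 had 982 and CON 1458. For Fabp1 on the right, HFD T cells (33703) lie above HFD hepatocytes (30510).

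Cholesterol synthesis and fatty acid synthesis differed in opposite directions. Of 19 tested genes of cholesterol synthesis and uptake, 11 were lower in HFD and 0 higher, with a median log2 ratio of -1.15. Hmgcs1, which makes HMG-CoA, had 2532 CPM in CON, 517 in HFD and 192 in CCL4 (ratio 0.204, 0.194 to 0.215), and Idi1, which isomerizes isopentenyl pyrophosphate, 1037, 179 and 57.9. Cyp51, Msmo1, Nsdhl, Sqle, Fdft1, Dhcr7 and Hsd17b7, later steps of the pathway, had ratios between 0.240 and 0.416.

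Of 19 tested genes of fatty acid and triglyceride synthesis, 8 were higher and 0 lower, with a median log2 ratio of 0.82. Scd1, which introduces the double bond of oleate, had 3280 CPM in CON, 20895 in HFD and 5499 in CCL4, a ratio of 6.37 (6.29 to 6.45). Fasn, fatty acid synthase, had 147, 669 and 331 CPM (4.54, 4.25 to 4.85). Thrsp and Mid1ip1, partners that promote lipogenesis, had ratios of 5.03 and 9.25, the malic enzyme Me1 3.62, Srebf1 3.62 and the acetyl-CoA carboxylase Acaca 3.01. Acly, which supplies cytosolic acetyl-CoA, was at 275 and 349 CPM. In T cells Scd1 was at 773 CPM in CON and 8575 in HFD. With the mean T cell UMIs of each gene taken off per hepatocyte, an estimate chosen after the data had been seen, Scd1 kept a ratio of 5.01 and Fasn 3.79, and all 8 higher genes of the list stayed at least 2-fold. Over all tested genes this step moved the median log2 ratio from 0.12 to -0.71, and 100 of the 217 higher genes stayed at least 2-fold. Every such count and ratio below is to be read beside these values.

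Fatty acid oxidation and PPAR alpha target genes had 12 higher and 1 lower of 28 tested (median log2 ratio 0.86). The peroxisomal thiolase Acaa1b had 139 CPM in CON, 1613 in HFD and 418 in CCL4, a ratio of 11.6 (10.9 to 12.3), and its near-identical neighbour Acaa1a 96.2, 104 and 46.5. Ehhadh, the bifunctional enzyme of the same organelle, had 56.8, 478 and 108 CPM. The fatty acid omega-hydroxylases Cyp4a10 and Cyp4a14 had 509 and 1458 CPM in CON, 2015 and 5345 in HFD, and 209 and 839 in CCL4, and they are similar enough in sequence for UMIs to be divided. Mitochondrial enzymes of the list differed by less, with Acadvl at a ratio of 2.30, Cpt1a at 1.02 and Acadm at 1.41. Angptl4, an inhibitor of lipoprotein lipase, was the lower member, with 82.3 CPM in CON and 37.6 in HFD. T cells had Acaa1b at 55.4 CPM in CON and 1369 in HFD. After the T cell UMIs were taken off, 7 of the 12 higher genes remained at least 2-fold.

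Lipid droplet and fatty acid binding genes had 4 of 12 tested higher, of which 1 stayed at least 2-fold with T cell UMIs taken off. Fabp1, the liver fatty acid binding protein, had 10794 CPM in CON and 30510 in HFD hepatocytes, but 7059 and 33703 in T cells, and with T cell UMIs taken off its ratio was 0.905 in place of 2.83. Plin2, which coats lipid droplets, was at 457 CPM in CON, 426 in HFD and 387 in CCL4 (ratio 0.933, 0.877 to 0.991). Cd36, a fatty acid transporter counted in the oxidation list and not in this one, was at 62.0, 172 and 160 CPM (2.77, 2.46 to 3.11). Among apolipoproteins, 2 of 16 were higher (12.5%) and 1 lower (6.25%), against 7.73% and 6.91% of all tested genes. Apoa4, a component of chylomicrons and high-density lipoprotein, had 1458 CPM in CON, 52.5 in HFD and 982 in CCL4, Pltp, the phospholipid transfer protein, 4.48, 67.2 and 2.60, and Apoe 6128, 12432 and 15477. For Apoe the ratio of 2.03 became 0.989 once T cell UMIs were taken off.

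Bile acid genes were higher in 8 of 20 tested (median log2 ratio 0.81) and lower in 0. Cyp7a1, the rate-limiting enzyme of bile acid synthesis, had 9.54 CPM in CON, 109 in HFD and 90.8 in CCL4, a ratio of 11.5 (9.14 to 14.5). At 1000 UMIs a cell, 1.13% of CON and 10.2% of HFD hepatocytes held a Cyp7a1 UMI, against 0.234 and 3.47% of T cells, and unthinned the hepatocyte shares were 6.20 and 26.2%. Cyp8b1, which sets the share of cholic acid, had 57.6 and 161 CPM, and Cyp7b1 of the alternative pathway 463 and 255. Abcg5 and Abcg8, which together export sterols into bile, had ratios of 3.78 and 4.24, and Abcc3, an export pump, 3.23. With T cell UMIs taken off, 6 of the 8 higher genes stayed at least 2-fold.

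Of 25 tested P450s and their receptors, 10 were higher and 2 lower, and 6 of the 10 stayed at least 2-fold with T cell UMIs taken off. Cyp2a5, a coumarin hydroxylase, had 14.9 CPM in CON, 209 in HFD and 4.29 in CCL4 (ratio 14.0, 11.8 to 16.8), and Cyp1a2, a pericentral enzyme of caffeine metabolism, 183, 846 and 22.0. The receptor CAR (Nr1i3) was at 18.6 and 78.7 CPM. Lower members were Ahr, the dioxin receptor, with a ratio of 0.453, and Cyp2d40 with 0.352. Among glutathione transferases and antioxidant genes, 8 of 28 were higher, led by Gstm1 with 453 CPM in CON and 2137 in HFD, and 1 was lower, Hmox1, with 85.0 and 25.8. Of the 8, 1 stayed at least 2-fold with T cell UMIs taken off, Gstm1 at 2.56, against 100 of the 217 higher genes.

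Zonation is the division of labour between hepatocytes near the central and portal veins. Of 11 tested pericentral landmarks, 6 were higher in HFD and 1 lower (median log2 ratio 1.07), and of 15 periportal landmarks 3 were higher and 1 lower (0.50). Higher were thus 54.5 and 20.0% and lower 9.09 and 6.67%, against 7.73 and 6.91% of all tested genes. Glul, glutamine synthetase of the innermost pericentral cells, had 264 CPM in CON, 832 in HFD and 52.7 in CCL4, and Cyp2e1, which activates carbon tetrachloride, 920, 2342 and 290. Cyp2f2, a periportal P450, had 832, 1179 and 1275 CPM. With T cell UMIs taken off, 3 of the 6 pericentral and 1 of the 3 periportal genes stayed at least 2-fold. In T cells Glul was at 88.2 CPM in CON and 162 in HFD, and its hepatocyte ratio was 3.11 with T cell UMIs taken off. Without the lower mitochondrial limit its log2 ratio was 0.56 in place of 1.66. That setting took 3438 CON and 7923 HFD barcodes, which may include cells other than hepatocytes. Cyp2e1 was at 306 and 1596 CPM in T cells, and its ratio went from 2.54 to 1.54 with T cell UMIs taken off. At 1000 UMIs a cell, 65.0% of HFD hepatocytes and 80.0% of HFD T cells held a Cyp2e1 UMI, and unthinned 88.6 and 98.6%. Glul was concentrated in few cells, as single hepatocytes held up to 205 of its UMIs in CON and 90 in HFD and T cells at most 12 and 5.

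Major urinary proteins, male pheromone carriers of closely related sequence among which UMIs may be divided, were lower in 6 of 9 tested and higher in 0. Mup17 had 891 CPM in CON, 132 in HFD and 4.97 in CCL4, and Mup11 1608, 282 and 10.4, whereas Mup20 had 15713, 14294 and 9160 and Mup3 11534, 9473 and 16230. The list's ratio differed between zones, a difference that was not tested. Each library's hepatocytes were ordered by pericentral against periportal UMIs and divided into 3 equal groups. In the most pericentral group (387 CON and 278 HFD cells) the median log2 ratio of the list was -2.31, and in the most periportal group (387 and 278 cells) it was 0.02. For Mup11 these values were -2.99 and -0.64, and for Mup17 -3.23 and 0.25. The acute-phase list had medians of -2.04 and -1.80 in the same groups, and fatty acid synthesis 0.64 and 1.12. Pericentral landmarks had 0.84 and 1.74 there, against 1.07 in all hepatocytes, and periportal landmarks 0.54 and 0.69. The groups may therefore not hold like cells in CON and HFD. Of HFD T cells 98.6% held a Cyp2e1 UMI, so free RNA may also enter the order.

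**Figure D3:**
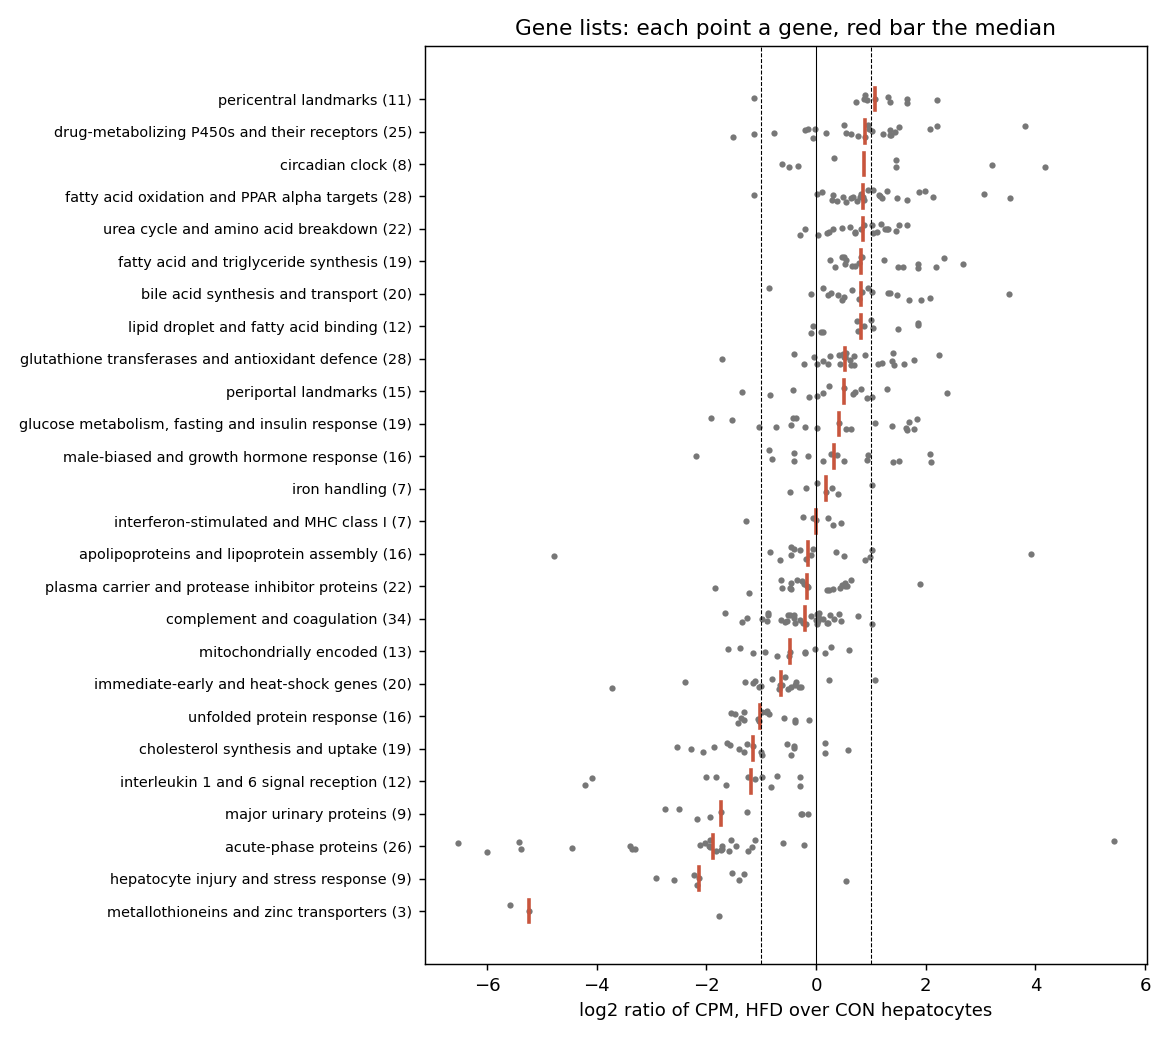
The log2 ratio of CPM, HFD over CON hepatocytes, of each tested gene in 26 gene lists, with the number of tested genes in brackets, 1 point a gene and a red bar at the list's median. Metallothioneins, injury genes and acute-phase proteins lie lowest (medians -5.24, -2.14 and -1.88), and pericentral landmarks highest (1.07). Dashed lines mark a 2-fold difference. The list of mitochondrially encoded genes holds genes whose UMI share the selection used.

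The remaining metabolic lists held more higher than lower genes. Genes of the urea cycle and amino acid breakdown were higher in 10 of 22 and lower in 0 (median log2 ratio 0.85), with Hgd, which opens the ring of homogentisate in tyrosine breakdown, at 79.0 CPM in CON and 215 in HFD, and Asl, which forms arginine, at 109 and 269. With T cell UMIs taken off 2 of the 10 stayed at least 2-fold, against 100 of the 217 higher genes. In the glucose list, 7 of 19 were higher and 3 lower, and with T cell UMIs taken off 4 of the 7 stayed at least 2-fold and the list's median log2 ratio went from 0.41 to -0.20. G6pc, which releases glucose, had 169, 527 and 1376 CPM in CON, HFD and CCL4, and Pck1, which starts gluconeogenesis from oxaloacetate, 1561, 1568 and 2913. Pklr, the liver pyruvate kinase, was at 16.3 and 58.1 CPM and Pfkfb3, an activator of glycolysis, at 54.7 and 14.6. Of 8 tested clock genes, 4 were higher, 3 of them also with T cell UMIs taken off. Dbp, Tef and Hlf are related transcription factors of the clock's output, with Dbp at 11.3, 104 and 29.4 CPM in CON, HFD and CCL4 and ratios of 2.74 for Tef and 2.73 for Hlf. Usp2, a rhythmic deubiquitinase, had 2.92, 52.8 and 20.8 CPM. The time of day at which each group was killed is not given in the sources used here.

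Bdnf, the neurotrophin at the centre of the study, was under the 50 CPM limit. It had 26 UMIs in CON and 36 in HFD hepatocytes, 2.53 and 11.2 CPM (ratio 4.42, 2.60 to 7.62), and 4.75 CPM in CCL4. T cells had 0.369 CPM in CON and 4.21 in HFD.

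Hepatocyte and T cell ratios were set side by side for every called gene. Of the 217 higher genes, 167 were also at least 2-fold higher in T cells and 14 were below 1 there. With T cell UMIs per cell taken off and no further limit on level, 100 of the 217 remained at least 2-fold, and for 34 the HFD T cells had at least the CPM of the hepatocytes. Of the 194 lower genes, 74 were at most 0.5 in T cells, 9 were above 1 there, and 190 remained at most 0.5. The same T cell shares over all tested genes were not counted, so 167 and 74 have no background to be read against. Lists with few higher calls differed in T cells. Complement and coagulation, with 1 of 34 higher, had a median log2 T cell ratio of 0.81, and carriers and protease inhibitors, with 1 of 22, had 0.97. Interferon and MHC class I genes, with 0 of 7, had 0.01. Taking off T cell UMIs moved the median log2 ratio of all tested genes to -0.71, which favours lower over higher calls. With the 50 CPM limit applied again to the 1678 genes that still reached it, 70 of the 217 and 172 of the 194 were still called, and scaled to the median ratio 125 and 144. Igkc, an antibody light chain that hepatocytes do not make, had 18.6 and 235 CPM in hepatocytes and 267 and 3348 in T cells. Single T cell barcodes held up to 820 of its UMIs in CON and 3169 in HFD, while the median T cell held 0. Its T cell levels therefore rest in part on single barcodes and are not free RNA alone. Arrdc3, an arrestin-like regulator, had 22.7 CPM in CON and 172 in HFD hepatocytes and 91.4 and 78.1 in T cells. What part of any ratio is free RNA was not tested.

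**Figure D4:**
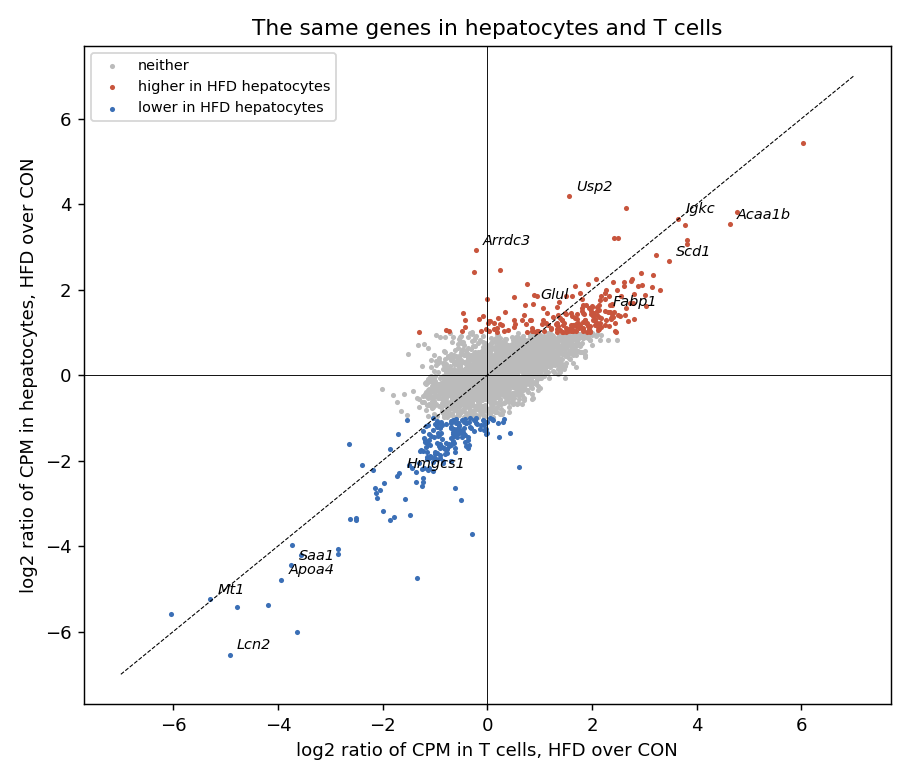
The log2 ratio of CPM, HFD over CON, in T cells (horizontal) and hepatocytes (vertical) for the 2808 tested genes, coloured by the hepatocyte call, with a dashed line at equal ratios. Most higher genes lie to the right of 0, as 167 of 217 were at least 2-fold higher in T cells, while most lower genes lie below the dashed line.

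Markers of other cells in the hepatocytes were given as summed levels of whole lists. B and plasma cell genes summed to 31.4 CPM in CON and 284 in HFD hepatocytes (565 and 3742 in T cells), macrophage genes to 41.4 and 107, granulocyte genes to 155 and 103, endothelial genes to 73.4 and 102, and T and NK cell genes to 43.2 and 52.8. The T cell sums of B and plasma cell genes include the single barcodes rich in Igkc. Most of the endothelial sums was Dpp4, with 66.0 CPM in CON and 84.6 in HFD. Erythroid genes summed to 466 and 306 CPM and stellate cell genes to 3.99 and 5.28. Cholangiocyte genes summed to 2266 and 1122, of which Clu alone had 1621 and 892 and Spp1 287 and 65.3. Of the 7 cholangiocyte genes, 2 were at 0 UMIs in both libraries, Krt7 and Cftr. Col1a1 and Lrat of the stellate list, Xcr1 of dendritic cells and Mzb1 of plasma cells were also at 0 in both. Their part in the differences was not tested.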

How the data were processed

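Counts of UMIs for each gene in each barcode of 10x Chromium 3′ libraries were deposited without normalization, made by the authors with Cell Ranger 7.2.0. The paper's methods name mm10 and the submitters' processing notes GRCm39. The files carry no coordinates, and 52081 of 55357 identifiers are in GENCODE M21 (GRCm38). Whether barcodes with few mitochondrial UMIs are cells is not given in the sources used here.

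Members, gene lists and the rule for named genes were chosen with earlier results of these data known. Counts were summed per library and scaled to CPM. Ratios carry exact conditional and shares exact Clopper-Pearson intervals at 95%, and a count of 0 was set to 3 counts. Thinning to 1000 UMIs used exact expected shares and left out no cell. Doublets were not called. Named were the 15 highest and 15 lowest genes by the ratio of CPM plus 5 (without mitochondrial and ribosomal protein genes), up to 4 genes of each of 36 lists with the largest log2 ratio, set genes of the liver, and family members beside them. Genes named beyond this, such as Spp1 in its list and genes at the limits, were chosen after their values were seen. Scripts used Python 3.11.15, numpy 2.4.6, scipy 1.17.1, pandas 2.3.3 and matplotlib 3.10.9 and were tested on simulated data. Total hepatocyte UMIs were 10269399 in CON, 3216659 in HFD and 8847843 in CCL4. A few genes of the lists are counted in them but not reported here by name.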

Additional observations from a re-analysis of the deposited data

Results flagged for a closer look

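Rn18s-rs5, a gene named for 18S ribosomal RNA, had opposite directions in both cell classes. Its log2 ratio, HFD over CON, was 1.01 in hepatocytes (759 CPM in CON and 1525 in HFD) and -1.30 in T cells (11291 and 4579 CPM). The difference was not tested, and with 1 library a side each value carries counting error only.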

How the results depend on the processing

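The values rest on 1 library a side, and depth, free RNA and diet move together. Of 19 alternatives set with earlier results known and 2 added after the data had been seen, the counts of 217 higher and 194 lower genes moved by more than 1.5 times as follows. A limit of 20 CPM gave 392 and 294 of 5227 genes, a limit of 100 CPM 135 higher of 1583, adding 20 CPM 127 higher, a fold of 1.5 gave 604 and 375, and a fold of 3 gave 65 and 94. T cell CPM taken off gave 94 and 315 of 969 genes, T cell UMIs per cell taken off (added) 74 and 625 of 1678, and the latter scaled to the median ratio (added) 229 higher and 364 lower. Without the lower mitochondrial limit, 3438 CON and 7923 HFD barcodes gave 192 and 214 genes, of which 131 and 153 were among the main calls. The log2 ratio of Igkc was 8.18 there and 3.66 in the main setting. These barcodes may thus include cells other than hepatocytes, which was not tested. Of the 411 calls, 3 turned in the most pericentral cells, 2 in the most periportal, 1 without the lower mitochondrial limit, 21 with T cell CPM taken off, 20 with T cell UMIs per cell taken off and 6 with the latter scaled. Among called genes named by the rule and list medians beyond 2-fold, log2 ratios that turned were Spp1 (0.41) without that limit, and Mup9 (0.65), Mup17 (0.25) and the urinary protein median (0.02) in the most periportal cells. With T cell CPM taken off they were Elovl3 (-2.40), Fabp1 (-11.87), Gsta3 (-0.96), Cyp27a1 (-0.74), Ech1 (-4.25), Gstt1 (-0.79), Rgn (-1.32), Khk (-0.06), Apoe (-0.99) and Mbl2 (-0.52). With T cell UMIs per cell taken off they were Gstt2 (-0.33), Fabp1 (-0.14), Ech1 (-0.74), Rgn (-0.04) and Apoe (-0.02), and scaled Ech1 (-0.06). The Fabp1 value of -11.87 is not a measured ratio. HFD T cells had more Fabp1 CPM than HFD hepatocytes, so nothing was left in HFD and a floor was used. Values within 2-fold turned as well and are not all listed, such as the glucose list's median (0.41 to -0.20) with T cell UMIs per cell taken off. The cause was not tested. No paired analysis was possible because each group is 1 library and no test was made.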

Other observations

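Of 16 tested genes of the unfolded protein response, 8 were lower and 0 higher (median log2 ratio -1.02), among them the chaperone Calr with 1575 CPM in CON and 566 in HFD, and the transcription factor Xbp1 with 729 and 247. Of 20 immediate-early and heat-shock genes, 7 were lower and 1 higher, with Egr1 at 1766 and 810 CPM, Gadd45b at 65.7 and 4.97, and Dusp1, a phosphatase that ends MAP kinase signals, at 138 and 290. In T cells Dusp1 had 563 and 555 CPM. Of 9 genes of injury and stress response, 8 were lower, including the chemokine Cxcl1 with 715 CPM in CON, 152 in HFD and 269 in CCL4 and the adhesion receptor Icam1 with 68.1, 9.02 and 3.96. The list's median log2 ratio was -2.14, and -0.69 in the most pericentral and -1.78 in the most periportal cells. Its tested members Spp1 and Sox9 are also cholangiocyte markers, and the cholangiocyte genes summed to 2266 CPM in CON and 1122 in HFD hepatocytes. Most of these sums was Clu, with 1621 and 892 CPM, which is not in the injury list. The part of cholangiocyte RNA in the result was not tested.

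Of 34 complement and coagulation genes, 1 was higher (2.94%) and 3 lower (8.82%), with a median log2 ratio of -0.21. Of 22 carrier and protease inhibitor genes, 1 was higher (4.55%) and 2 lower (9.09%), with a median of -0.16. Over all tested genes 7.73% were higher and 6.91% lower, so both lists were near that background. Single calls in the short lists below are to be read beside the same shares. Serpina6, which carries corticosteroids, had 57.3 CPM in CON and 213 in HFD. Serpina1e, of a closely related inhibitor family, had 10739 and 2981, and Ttr, which carries thyroid hormone, 5267 and 8154. Of 7 interferon and MHC class I genes 1 was lower (Ifi47, ratio 0.411), of 16 male-biased genes 4 were higher and 1 lower (Socs2, 0.220), of 7 iron genes 1 was higher (Slc40a1, 2.03), and the 1 tested female-biased gene, Fmo1, had a ratio of 1.78. Of 80 ribosomal protein genes 0 were higher and 1 lower, and of 13 mitochondrially encoded genes 3 were lower. The selection of hepatocytes used the UMI share of the mitochondrially encoded genes, so their levels are not independent of it.

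In the CCL4 library, 129 of the 217 higher genes had a level between CON and HFD, 28 at or below CON and 60 at or above HFD. Of the 194 lower genes, 106 lay between, 84 at or below HFD and 4 at or above CON. Since CON enters every one of these comparisons, the counts are a description of 3 libraries.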
